A study of Mus musculus with 4 samples.

Results

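The Wnt ligand genes described here are Wnt2, Wnt2b, Wnt4, Wnt5a, Wnt5b, Wnt6, Wnt9a, Wnt10b, Wnt11 and Wnt16, taken by symbol from a count table of 25239 genes. They are 10 of the 19 mouse Wnt genes, all of which the table lists. RNA-seq was done on primary mouse chondrocytes, the cells that make cartilage. The 2 control libraries came from Tiki2 fl/fl mice. The 2 conditional knockout (cKO) libraries came from Tiki2 fl/fl mice that also carry Col2a1-Cre/ERT, a tamoxifen-activated Cre driven by the cartilage collagen promoter. All 4 cultures received 4-hydroxytamoxifen, so the floxed alleles and the drug are shared and, by the labels, the Cre is what differs. The design cannot separate an effect of the Cre from that of a change in Tiki2, whose gene is Trabd2b. No label states that replicates are different animals or cultures. The p-values thus rest on the spread of these samples alone, which may be technical in the cKO pair. The control libraries differ in sex by Xist and Ddx3y counts, and so are not repeats of 1 animal.

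Wnt proteins are secreted signals that carry a lipid on a conserved serine. The acyltransferase Porcn adds it in the endoplasmic reticulum, the carrier Wls takes the ligand to the cell surface, and Frizzled receptors grip the lipid. Bound to Frizzled and Lrp5 or Lrp6, some ligands stabilise β-catenin, while others signal through Ror2, Ryk or planar polarity proteins. Tiki proteins are membrane proteases that clip the amino end of Wnt ligands and so inactivate them. In cartilage, Wnt signals pattern the joint and set the pace of chondrocyte maturation.

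Total counts lay between 66750140 and 78873054 per library. Trabd2b counts were 28513 and 31314 for control, 22643 and 29473 for cKO, at a log2 fold change of -0.38 ± 0.11 (SE) and an adjusted p of 0.15 (edgeR). These counts over the whole gene do not show a knockout, so cKO names the libraries by their label here. Control replicate 1 had 112185 counts of Xist and 0 of the Y-linked Ddx3y, while the other 3 libraries had at most 171 and at least 11073. Control replicate 1 thus stands apart by sex, and ligand fold changes without it are described below. CPM below is a gene's count scaled to a common library total. Chondrocyte markers (8 of 8 in the table, none at 0) summed to 20314.5 and 24114.1 CPM in control libraries, against 11377.2 and 8208.11 CPM in cKO. By edgeR 7 of the 8 were called lower, against 0.908% of all genes tested. In bulk RNA, fewer cells of a type and less RNA per cell cannot be told apart.

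The ligands share a signature that the selection by symbol did not use, the stretch that encodes the acylated serine. It is shown for the 7 ligands above 1 CPM and for Wnt2, the closest relative of Wnt2b. Each line gives 33 coding bases from GENCODE M21, 5′ to 3′, with the serine codon in capitals.
Wnt5a: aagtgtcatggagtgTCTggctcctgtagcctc
Wnt5b: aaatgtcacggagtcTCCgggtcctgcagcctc
Wnt11: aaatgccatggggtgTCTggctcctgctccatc
Wnt16: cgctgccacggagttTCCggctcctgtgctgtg
Wnt9a: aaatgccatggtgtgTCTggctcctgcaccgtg
Wnt2b: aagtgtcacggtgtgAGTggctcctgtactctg
Wnt2: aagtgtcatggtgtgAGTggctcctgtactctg
Wnt10b: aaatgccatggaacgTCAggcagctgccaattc
Wnt2 and Wnt2b were identical at 32 of the 33 bases and Wnt5a and Wnt5b at 27, while Wnt2b and Wnt10b shared only 16.

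Such likeness matters for counting, because reads of near copies can be misassigned. Across whole coding sequences Wnt5a and Wnt5b were 77.8% identical and Wnt2 and Wnt2b 69.9%, and the 45 pairs of members ranged down to 57.4%. The longest exact run shared by any pair was 29 bases, between Wnt5a and Wnt5b. No 50-base stretch of a member's transcript occurred in another Wnt gene. For each member only the transcript with the longest coding part was searched, for Wnt16 1663 bases beside 4360 merged exon bases. Exon parts outside it were not checked. Wnt11 shared 315 of its 3402 such stretches (9.26%) with the pseudogene Gm8398, which lies on the opposite strand over 364 of its exon bases. Wnt4 shared 4.33% of its stretches with transcripts of 665 other genes. Wnt5a exons overlap the antisense gene Gm2670 over 358 of 7823 bases. Neither Gm8398 nor Gm2670 is among the genes of the count table. Since the strand setting of the counting is not given, reads in these parts of Wnt5a and Wnt11 are uncertain.

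Of the 10 ligands, 7 were above 1 CPM in all 4 libraries, and 3 were below it in all 4. The 7 were Wnt5a, Wnt16, Wnt5b, Wnt2b, Wnt11, Wnt9a and Wnt10b, and the 3 were Wnt4, Wnt6 and Wnt2. The lowest value among the 7 was 1.47 CPM for Wnt9a in control replicate 2, and the highest among the 3 was 0.570 CPM for Wnt4 in the same library. No ligand crossed the line between libraries. These are levels of whole cultures, and which cells in them carried the RNA was not tested.

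**Figure D1:**
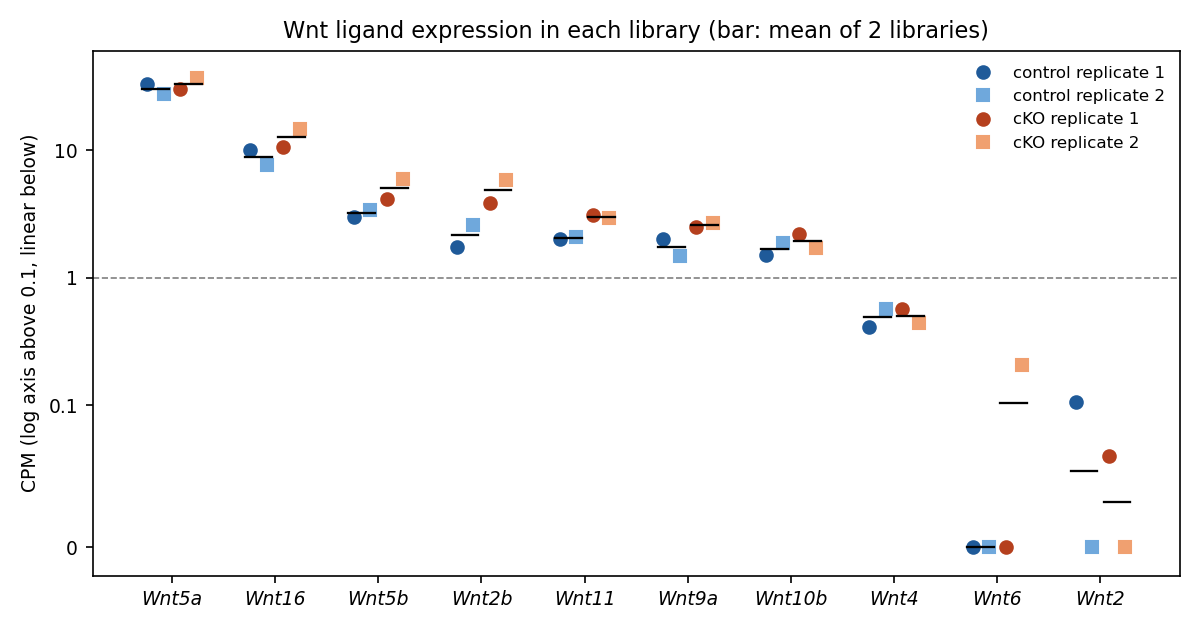
CPM of each ligand (vertical axis, logarithmic above 0.1 and linear below) in the 4 libraries, with black bars for the mean of 2 libraries and a dashed line at 1 CPM. The 7 ligands on the left lie above the line in every library, and Wnt4, Wnt6 and Wnt2 lie below it in every library.

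Wnt5a, the main ligand of the β-catenin-independent branch and a regulator of growth plate chondrocytes, had the highest level, in CPM and per exon length. It lies on chromosome 14 (mm10, 28504750 to 28527448). Its control levels were 32.9 and 27.6 CPM and its cKO levels 29.9 and 36.6 CPM, from 2079 to 2972 counts. The groups overlapped, since cKO replicate 1 lay between the controls. The log2 fold change was 0.14 ± 0.13 (SE), with a 95% interval from -0.19 to 0.46 and an edgeR adjusted p of 0.68. The interval does not reach a change of 1.5-fold in either direction, but it covers the spread of these libraries alone.

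Wnt5b, its closest relative and also a ligand of cartilage, lies on chromosome 6 (119432531 to 119544347). The controls had 3.01 and 3.40 CPM, the cKO libraries 4.11 and 5.91 CPM. Both cKO libraries were above both controls, and cKO replicate 2 stood highest. The log2 fold change was 0.64 ± 0.25 (95% interval 0.03 to 1.25), with an unadjusted edgeR p of 0.041 and an adjusted p of 0.27. Fbxl14, a gene within the Wnt5b span on the other strand, shares no exon base with it and had a log2 fold change of -0.03.

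Wnt11, a ligand of cell movement and planar polarity, lies on chromosome 7 (98835112 to 98855195). Control values of 2.02 and 2.07 CPM stood against cKO values of 3.12 and 2.92 CPM, the tightest replicates among the ligands above 1 CPM. Both cKO libraries were above both controls by more than the spread within either pair. The mean went from 2.04 ± 0.0357 to 3.02 ± 0.144 CPM (SD, n = 2), with a log2 fold change of 0.56 ± 0.25 and an edgeR adjusted p of 0.33. Only 132 to 242 counts stood behind each value.

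Wnt16, a ligand of the joint lining and superficial cartilage that is known to be induced after cartilage injury, was second, in CPM and per exon length. The gene lies on chromosome 6 (22288227 to 22298522). Its values were 10.05 and 7.67 CPM for control, 10.6 and 14.7 CPM for cKO. Both cKO libraries were above both controls, but cKO replicate 1 exceeded control replicate 1 by little. The log2 fold change was 0.52 ± 0.21 (95% interval 0.01 to 1.03), with an unadjusted edgeR p of 0.047 and an adjusted p of 0.28.

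Wnt9a and Wnt4 are ligands of the forming joint. Wnt9a, on chromosome 11 (59306928 to 59333552), measured 2.003 and 1.47 CPM in control libraries, then 2.49 and 2.69 CPM in cKO. Both cKO libraries again lay above both controls. Its log2 fold change was 0.58 ± 0.30, with a 95% interval from -0.15 to 1.31 (edgeR adjusted p = 0.40). Wnt4, on chromosome 4 (137277489 to 137299726), stood at 0.413 and 0.570 CPM (control) and 0.567 and 0.443 CPM (cKO), or 27 to 44 counts. The Wnt4 groups overlapped fully, and the 95% interval of its log2 fold change, from -1.45 to 1.52, means that a 2-fold difference was not detectable at this depth.

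Wnt2b, a ligand best known from eye, lung and kidney development, had the largest fold change of the 8 tested ligands. It lies on chromosome 3 (104945272 to 104961921). Counts were 114 and 197 in controls and 300 and 474 in cKO, or 1.74, 2.61, 3.87 and 5.83 CPM. The groups did not overlap, although the replicates within each group were themselves far apart. The mean went from 2.18 ± 0.615 to 4.85 ± 1.39 CPM (SD, n = 2), 2.22-fold, with a 95% interval from 1.30-fold to 3.81-fold. The unadjusted edgeR p was 0.011 and the adjusted p 0.15. DESeq2 gave an adjusted p of 0.036, the smallest of 13 alternatives, which ranged up to 0.44.

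Wnt10b, a ligand that favours bone formation over fat, lies on chromosome 15 (98770712 to 98778150). Levels were 1.498 and 1.86 CPM in control libraries, 2.22 and 1.70 CPM in cKO. The groups overlapped, and the log2 fold change was 0.22 ± 0.33 (edgeR adjusted p = 0.79).

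Wnt2 and Wnt6 had too few counts to be tested. Wnt2, on chromosome 6 (17988940 to 18030585), had 7 and 0 counts in controls and 5 and 0 in cKO. Wnt6, on chromosome 1 (74771892 to 74785322), had 0 counts in 3 libraries and 17 in cKO replicate 2. In the 3 libraries at 0, 3 counts would correspond to 0.0459, 0.0398 and 0.0387 CPM, the level that a count of 0 allows. The 17 counts correspond to 0.209 CPM, with an exact Poisson 95% interval from 0.122 to 0.335 CPM for counting error only. A single library is no basis for a difference between genotypes.

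By edgeR, no ligand passed the adjusted threshold, against 1.3% of the 15522 genes tested (202 genes, 61 higher and 141 lower, or 116 higher and 123 lower with library sizes alone). Before adjustment 3 of the 8 tested ligands, Wnt2b, Wnt5b and Wnt16, had an edgeR p under 0.05, all of them higher, against 17.2% of all genes in either direction and 8.36% higher. DESeq2 called 1 ligand, Wnt2b, against 6.72% of genes, and limma-voom called 0 against 2.15%. All 8 fold changes were above 0, against 50.4% of all genes, and both cKO libraries were above both controls for 5 of the 8, against 24.9%. The median log2 fold change of the 8 was 0.54, beside 0.00 for all genes tested. The 8 ligands were counted in the same 4 libraries, so their shared direction is not that of separate experiments. They were also chosen with earlier results of these data known. Of the other 9 Wnt genes 2 were tested, and 0 had a fold change above 0 (log2 fold change -0.28 for Wnt10a and -0.02 for Wnt7b). With library sizes alone the median of all genes tested was 0.07, and the same 5 ligands had non-overlapping groups.

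**Figure D2:**
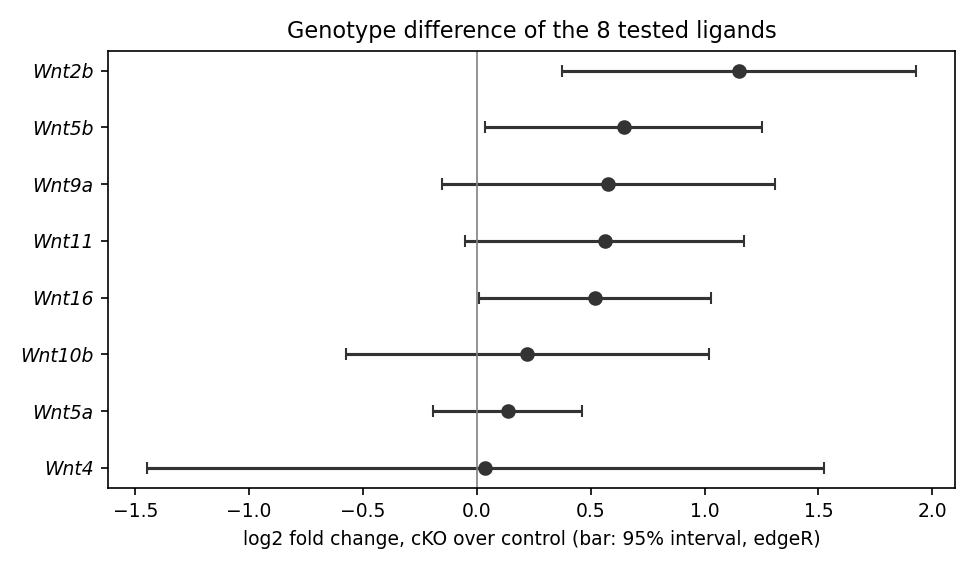
Log2 fold change of cKO over control (horizontal axis) for the 8 tested ligands, with 95% intervals from edgeR. All points lie right of 0, and the intervals of Wnt2b, Wnt5b and Wnt16 do not reach 0 before adjustment over genes.

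Leaving out a library moved the ligands differently. For Wnt11 the log2 fold change stayed between 0.51 and 0.61 over the 4 such fits. For Wnt2b it ran from 0.83 without cKO replicate 2 to 1.48 without control replicate 2, and it was 0.89 without control replicate 1, the library that stands apart by sex. Wnt16 ran from 0.26 without cKO replicate 2 to 0.73 without cKO replicate 1, and was also 0.73 without control replicate 1. Wnt5b was 0.36 without cKO replicate 2 and between 0.56 and 0.88 in the other fits. Wnt9a ran from 0.37 without control replicate 2 to 0.82 without control replicate 1. The fold change of Wnt10b was 0.08 without control replicate 1, 0.39 without control replicate 2, 0.01 without cKO replicate 1 and 0.40 without cKO replicate 2. The direction of Wnt5a turned without cKO replicate 2 (-0.017), and that of Wnt4 turned without control replicate 1 (-0.17) or cKO replicate 1 (-0.15). In none of these fits did edgeR call a ligand.

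**Figure D3:**
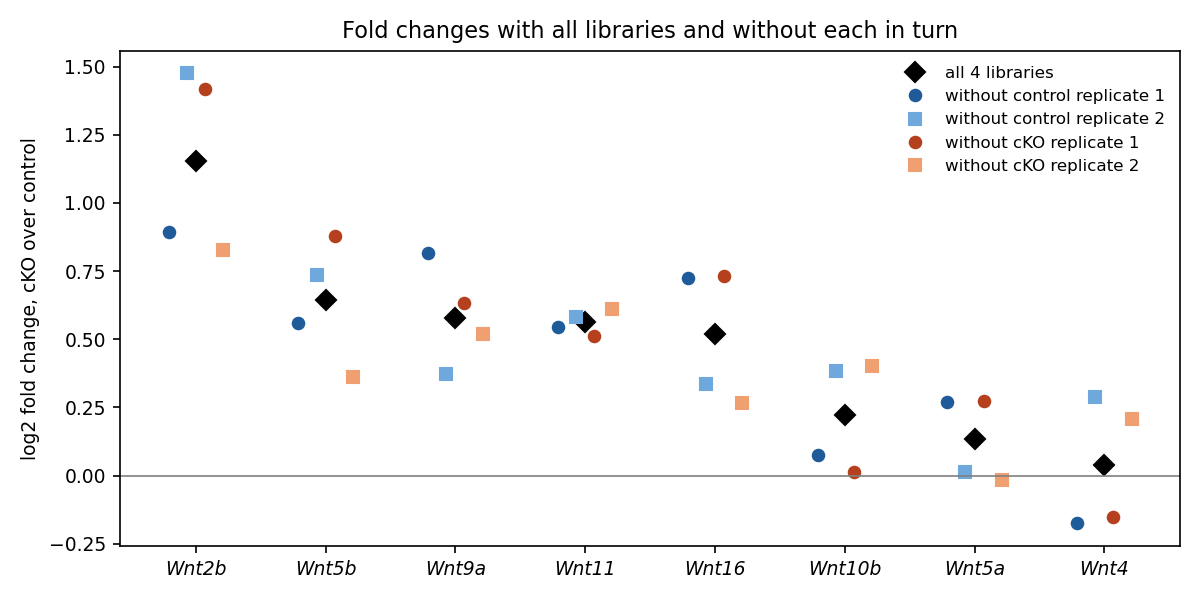
Log2 fold change of cKO over control (vertical axis) for each tested ligand with all 4 libraries (diamonds) and without each library in turn (coloured symbols). The Wnt11 values lie between 0.51 and 0.61, those of Wnt2b between 0.83 and 1.48, and those of Wnt5a and Wnt4 fall on both sides of 0.

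To compare ligands with each other, CPM was divided by the length of each gene's merged exons. Per kilobase (kb), Wnt5a was highest at 3.52 to 4.67 CPM per kb over the 4 libraries, clear of Wnt16 at 1.76 to 3.38. Wnt16 and Wnt5b (1.13 to 2.23) overlapped in range, as did Wnt5b and Wnt2b (0.415 to 1.39). Wnt9a, Wnt11 and Wnt10b, with means of 0.650, 0.612 and 0.534 CPM per kb, did not differ beyond their spread. With the longest coding transcript as the length, their order became Wnt11, Wnt10b, Wnt9a, and the other 7 ligands kept their ranks. Wnt4 (0.0984 to 0.136) lay below all 7, and Wnt6 and Wnt2 reached at most 0.0954 and 0.0475 CPM per kb.

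The make-up of the ligand pool was then described per exon length, with no test, since 2 against 2 libraries cannot give an exact permutation p under the threshold. The 10 ligands summed to 9.74 and 8.81 CPM per kb in controls and 11.0 and 13.9 in cKO. Wnt5a made up 43.2% and 40.0% of this sum in controls and 34.6% and 33.7% in cKO, so its share was lower in both cKO libraries. Its ratio to Wnt5b was 3.71 and 2.76 for control, then 2.46 and 2.101 for cKO. The Wnt2b share was 4.26% and 7.06% in controls and 8.34% and 10.002% in cKO. Wnt16 held 19.96% to 24.3% in all 4 libraries, with overlapping groups. Wnt5a, Wnt16 and Wnt5b were the 3 largest shares in every library.

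**Figure D4:**
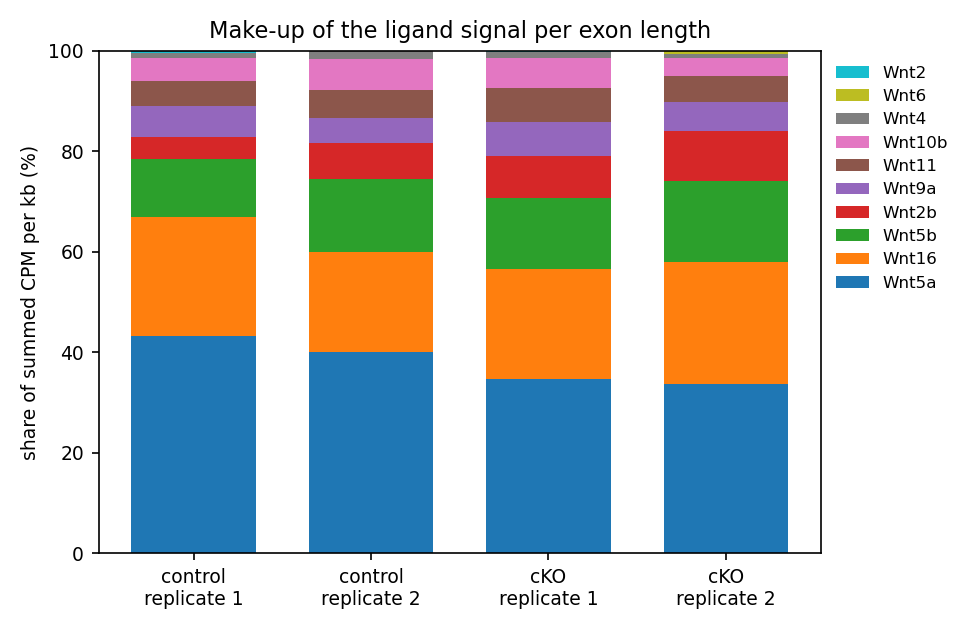
Share of each ligand in the summed CPM per kb of the 10 ligands (vertical axis, percent) in each library. The Wnt5a share is 43.2% and 40.0% for control against 34.6% and 33.7% for cKO, and the Wnt2b share is largest in cKO replicate 2 (10.002%).

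Markers of other cell types were summed in the same libraries, and of these lists only that of fibroblasts and synovial lining held genes called by edgeR. Adipocyte markers (8 in the table, Lep at 0) summed to 105 and 98.1 CPM for control, 144 and 242 CPM for cKO. By edgeR 0 of the 7 tested were called. The sum was highest in cKO replicate 2, as were Wnt2b, Wnt5b, Wnt16, Wnt9a and Wnt5a. This was not particular to adipocyte markers. The fibroblast and synovial lining sum was also highest in that library (7521.33 CPM), and the chondrocyte sum was lowest there (8208.11 CPM). Wnt11 (3.12 CPM) and Wnt10b (2.22 CPM) were highest in cKO replicate 1, and Wnt4 (0.570 CPM) in control replicate 2. Fibroblast and synovial lining markers (8, none at 0) summed to 5200.83 and 4972.87 CPM for control, 6928.07 and 7521.33 CPM for cKO. By edgeR 3 of the 8 were called higher, against 0.393% of all genes tested. Skeletal muscle markers (8, none at 0) did not follow genotype, at 4.52, 26.5, 47.8 and 10.8 CPM in the same order. The part of these cells in the ligand values was not tested. Endothelial markers (5, Emcn at 0) summed to at most 0.968 CPM, keratinocyte markers (5, Krt14 and Dsg3 at 0) to at most 2.22 CPM and Schwann cell markers (4, Sox10 at 0) to at most 3.46 CPM. Macrophage and leukocyte markers (6, none at 0) summed to 10.9 to 16.5 CPM and osteoblast markers (5, none at 0) to 13.3 to 16.2 CPM.

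Of the other 9 Wnt genes, none reached 1 CPM in any library. Wnt3, Wnt3a, Wnt7a, Wnt8a and Wnt9b had 0 counts throughout. Wnt10a, a ligand of teeth and skin appendages, had 47 and 66 counts in controls and 52 and 52 in cKO, 0.640 to 0.875 CPM, log2 fold change -0.28 ± 0.49, adjusted p of 0.83 by edgeR. Wnt7b had 4 to 25 counts, Wnt1 had 9 counts in control replicate 1 alone, and Wnt8b had 4 in cKO replicate 2 alone. Several Wnt genes sit in pairs. Wnt9a lies 16.2 kb from Wnt3a, and Wnt10b 11.7 kb from Wnt1, and in both pairs the member was above 1 CPM while its partner had 9 counts or fewer in every library. Wnt6 lies 6.2 kb from Wnt10a, and there the member was the lower gene.

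The rest of the pathway was read from lists by role, with counts beside the 0.393% of all genes called higher and the 0.908% called lower by edgeR. For the other counts, 17.2% of all genes had an unadjusted edgeR p under 0.05 and 6.72% were called by DESeq2. None of 10 tested genes of ligand maturation and release was called by edgeR, with 5 at an unadjusted p under 0.05, 3 called by DESeq2 and a median log2 fold change of 0.13. The 3 with the smallest p were the glypican gene Gpc4 (log2 fold change 0.28), the heparan sulfate endosulfatase gene Sulf2 (0.28) and Trabd2b. The 5 thus include Trabd2b, the floxed gene itself (unadjusted edgeR p of 0.011). None of 17 receptors and co-receptors was called by edgeR, with 7 at an unadjusted p under 0.05, 3 called by DESeq2 and a median of 0.18. Their leading genes were the co-receptor Ptk7 (0.28), Fzd9 (-0.52) and the Wnt5a receptor Ryk (0.25), at edgeR adjusted p-values of 0.11 to 0.15.

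R-spondins strengthen Wnt signals by sparing Frizzled from turnover. None of 8 tested genes of R-spondins and their receptors was called by edgeR, with 1 at an unadjusted p under 0.05, 0 by DESeq2 and a median of 0.01. Lgr5, Lgr4 and Rspo2 had the smallest p-values, with log2 fold changes of 0.89, -0.16 and 0.20. Of 8 tested secreted antagonists 1 was called, Frzb, a Wnt-binding protein of cartilage that fell by 1.21 ± 0.18 (log2 ± SE; edgeR adjusted p = 0.042), while the list median was 0.65. At an unadjusted edgeR p under 0.05 there were 4 antagonists higher and 1 lower, and DESeq2 called 3 higher and 1 lower. Whether the call of Frzb rests on 1 control cannot be told, since fits without a control library leave a single control.

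Downstream, 2 of 11 tested β-catenin feedback targets were called higher by edgeR and none lower, with a list median of 0.54. At an unadjusted edgeR p under 0.05 there were 5 higher and 2 lower, and 7 of the 11 fold changes were above 0. Lgr5, Rnf43 and Znrf3 are also in the list of R-spondins and their receptors, and Notum in that of maturation and release. Lgr5 (unadjusted edgeR p of 0.025) is thus counted in both lists that hold it. Axin2, a feedback inhibitor in the destruction complex, rose by 1.20 ± 0.15 on the log2 scale, and the cyclin gene Ccnd1 by 0.54 ± 0.06, at edgeR adjusted p-values of 0.031 and 0.029. With a replicate block neither was called, in a fit that called 23 of 15522 genes. The list held 2 genes called higher with library sizes alone, RLE factors, DESeq2 and limma-voom. Fits without a control library leave a single control, so whether the calls rest on 1 control cannot be told. None of 17 tested genes of the β-catenin-independent branch was called by edgeR, with 2 at an unadjusted p under 0.05, 0 by DESeq2 and a median of 0.01. The polarity genes Celsr3, Prickle2 and Celsr1 had the smallest p there, with log2 fold changes of -0.67, 0.24 and -1.49. In the 4 lists without an edgeR call, limma-voom called no gene either. The adipocyte, fibroblast and chondrocyte marker sums given above differed in the same libraries, and their part in these values was not tested.

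**Figure D5:**
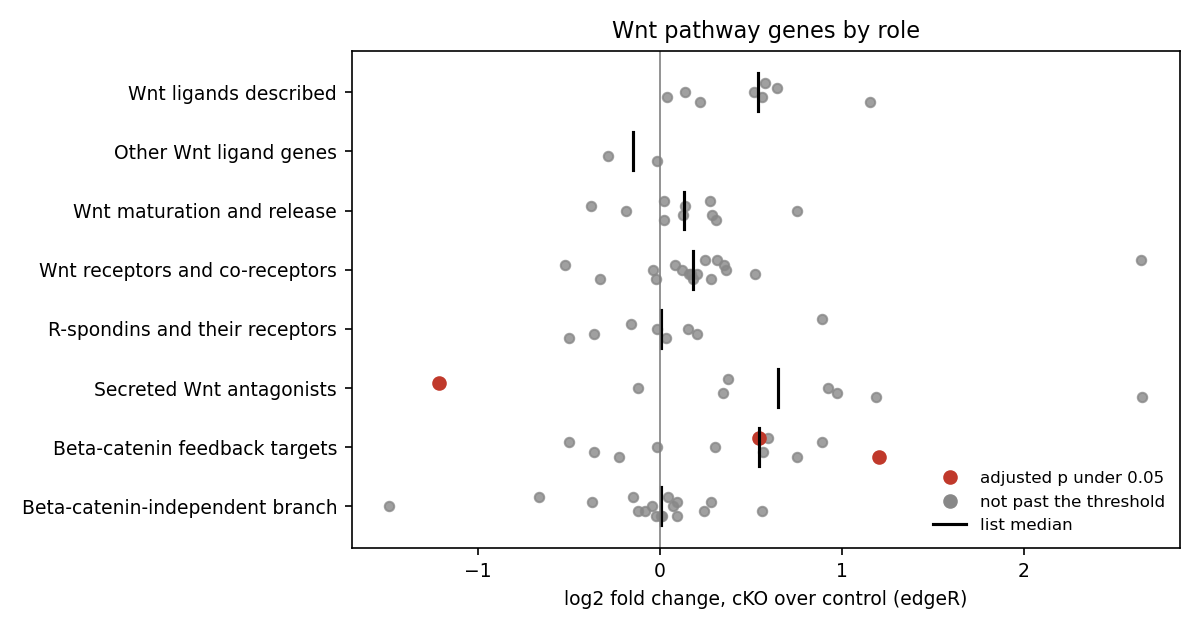
Log2 fold change of cKO over control (horizontal axis) for each tested Wnt pathway gene, in rows by role, with a black line at each list's median. Called genes are red: Frzb on the left among the antagonists and Ccnd1 and Axin2 on the right among the feedback targets. No ligand is red.

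Promoter windows from RefSeq (GRCm38.p6), 250 bases before to 50 after a transcript start, were found for 9 of the 10 ligands, in 12 windows. Wnt5a had no entry. They were searched on both strands for the TCF/LEF cores CTTTGA and CTTTGT, which share 5 of their letters and are the letters that the partners of β-catenin bind. Of the 12 windows 2 held a core, the first Wnt11 window and 1 of 3 Wnt5b windows, while 31.2% of 32851 windows of all genes held one. These are shown because they are the ligand windows with a core. Each line gives the 100 bases before the start, 5′ to 3′ on the gene's strand, with the core in capitals.
Wnt11, plus strand, chr7:98835012-98835111: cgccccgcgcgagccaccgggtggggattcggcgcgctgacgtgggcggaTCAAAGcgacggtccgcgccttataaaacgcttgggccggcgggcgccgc
Wnt5b, minus strand, chr6:119449387-119449486: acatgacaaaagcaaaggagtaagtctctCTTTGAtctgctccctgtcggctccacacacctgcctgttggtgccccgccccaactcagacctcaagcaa
In Wnt11 the core lies 50 bases before the start and a TATAAA 29 bases before it. The windows of Wnt2b and Wnt16, whose unadjusted edgeR p was under 0.05, held neither core, which says only that these letters are not in this window.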

How the data were processed

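RNA-seq of poly(A) RNA was analysed in 2 control and 2 cKO libraries, grouped by their labels. The authors deposited raw counts, unscaled whole numbers per gene symbol. The submitters' processing notes list StringTie 2.1.7, HISAT2 2.2.1, FastQC 0.11.9 and Trim Galore 0.6.7, besides the build mm10, without saying what each did. Counting tool, strand setting and annotation: not given in the sources used here.

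Genes were kept by filterByExpr (minimum count 10), which left 15522 of 25239. After TMM scaling, genotype was tested with no covariate by the quasi-likelihood test of edgeR 4.0.16 (R 4.3.3). P-values were adjusted by Benjamini-Hochberg over all genes tested, with a threshold of 0.05. CPM is per TMM-scaled library size, or per plain library size for marker sums. Standard errors were obtained from the fold change and its F statistic, and group values are mean ± SD of 2 libraries. Gene positions, exon lengths and coding sequences are those of GENCODE M21 (also mm10), and promoter windows from RefSeq (GRCm38.p6). The common biological coefficient of variation was 0.174. In a simulation of this comparison with 15217 genes, 66.7% of 96 genes changed 2-fold and 82.8% of 99 genes changed 4-fold were recovered. Of the unchanged genes 5 were called. The simulated spread depended on expression level alone, with no sex difference, and the changed genes were of all levels. The rates thus need not hold for the ligands.

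The alternatives were library sizes alone, RLE factors, DESeq2 1.42.0, limma-voom (limma 3.58.1), no filter, a minimum count of 50, counts divided by 4, a replicate block, and leaving out each library. Counts were divided by 4 because 30.0% to 32.0% of values between 1 and 20 are multiples of 4. Replicates differed beyond sampling noise, with a chi-square per degree of freedom of 38.5 in control and 42.3 in cKO. The ligands, the gene lists and the tests were chosen with earlier results of these data known. The genes named are all Wnt genes, Trabd2b and, of each other list, the called members or, where none was called, the 3 with the smallest p-values. Intervals and floors from counts cover counting error only, since PCR copies cannot be told from separate molecules.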

Additional observations from a re-analysis of the deposited data

How the results depend on the processing

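The count of all genes called by edgeR, 202, was 1077 with DESeq2, 333 with limma-voom, 371 with counts divided by 4 and 5 to 782 without 1 library. The labels' replicate numbers do not state a pairing, and same-numbered libraries deviated with a correlation of -0.12. With a replicate block 23 genes were called, of the ligands 0, of the secreted antagonists 2 (1 higher, 1 lower) and of the β-catenin feedback targets 0. With the numbers exchanged, an alternative chosen after seeing the data, the crossed replicate block called 564 genes, 0 ligands, 4 antagonists (3 higher, 1 lower) and 1 gene of maturation and release. DESeq2 called 1 ligand, 3 genes of maturation and release, 3 receptors and 4 antagonists (3 higher, 1 lower). Without 1 library, 0 to 1 maturation genes, 0 to 2 receptors, 0 to 3 antagonists and 0 to 3 feedback targets were called. The fits without 1 library rest on fewer samples and assume that the lone library varies like the other group; the cause of the other shifts was not tested. The log2 fold change of Wnt4 reversed with counts divided by 4 (-0.013) and in fits that drop control replicate 1 (-0.17) or cKO replicate 1 (-0.15), with a range of -0.17 to 0.29 over the fits that drop a library. That of Wnt5a reversed without cKO replicate 2, with a range of -0.017 to 0.27. Wnt2b, Wnt5b, Wnt9a, Wnt10b, Wnt11 and Wnt16 stayed above 0 in all 13 alternatives, which reuse the same libraries. Per kilobase, 7 of 10 ranks held with the longest coding transcript as the length. The number of ligands above 1 CPM was 7 with plain library sizes too. At under 50 counts per library, depth limits Wnt4, Wnt6 and Wnt2.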
